A study of Mus musculus with 12 samples.

Results

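The genes described here encode ATP-dependent chromatin remodellers outside the ISWI family: the BAF, CHD/NuRD and INO80/SRCAP/EP400 complexes and further ATPases of the SNF2 family. The members were 46 genes listed by name, found in the platform's gene symbol column, and all 46 were measured among the 18194 genes of the arrays. Where a gene had several probe sets, as 34 members did, the one with the highest mean stood for it, and 12 members had 1 probe set. By role they were 2 ATPases, 9 core subunits and 10 accessory subunits of BAF complexes, 9 CHD ATPases, 5 NuRD subunits, 5 INO80, SRCAP and EP400 ATPases with the RUVBL helicases, and 6 other SNF2-family ATPases.

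Remodellers use ATP to slide, evict or exchange nucleosomes and so change which DNA sequences transcription factors and the repair machinery can reach. BAF complexes mainly open chromatin at enhancers and promoters, NuRD joins a CHD motor to histone deacetylases, and INO80 and SRCAP type complexes place or remove variant histones. In the preovulatory follicle, the surge of luteinizing hormone makes granulosa cells leave the cell cycle and start ovulatory and luteal gene expression, which involves broad changes in chromatin.

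RNA of mouse granulosa cells was measured on 12 Affymetrix arrays in 4 groups of 3. The wild-type (WT) groups came from littermates of the mutant line. The Ex6DEL groups carried a deletion of exon 6 of Snf2l, which is Smarca1, an ISWI ATPase and no member of the list. The deletion was made with a ubiquitous Gata-1 Cre transgene, passed through the germline and kept without Cre on a 129SV background, from an origin of CD-1 and 129Sv mice, so the whole animal and not granulosa cells alone carried it. All females, 24 to 26 days old, were injected with 5 IU of pregnant mare serum gonadotropin (PMSG) to grow their follicles. The 0 h groups were collected 48 h later without further treatment, and the 4 h groups were given an ovulatory injection of 5 IU of human chorionic gonadotropin (hCG), a ligand of the luteinizing hormone receptor, and were collected 4 h after it. Each array held cells pooled from 5 mice. The labels do not say whether the 3 arrays of a group were separate pools, so the p-values measure the spread between arrays, which may be technical. In such bulk samples, fewer cells of a type and less RNA per cell cannot be told apart.

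Values are log2 intensities, of which the median was 2.75 to 2.91 in each array, and levels of different genes are not set against each other because probe sets differ in brightness. Smarca1 itself lay between 10.31 and 11.10 in WT at 0 h and between 10.61 and 10.96 in Ex6DEL at 0 h. The place of its probes relative to exon 6 is not known here, so this level does not check the genotype. Granulosa markers, of which 7 of 8 were measured, had a mean of 10.82 to 12.68 on every array, although Amh lay under the array median on all 12. Some arrays stood apart from their group. Ovulatory genes that hCG induces, 9 of 10 measured, had a mean of 9.47 in Ex6DEL 0 h replicate 3. That mean was 3.30 to 5.07 in the rest of the 0 h arrays and 11.28 to 12.99 at 4 h. Single genes departed from it. Snap25 was 2.41 in Ex6DEL 0 h replicate 3, and Ereg was 10.75 in WT 0 h replicate 1, against 3.88 and 4.06 in replicates 2 and 3. Theca and stroma markers, 8 of 9 measured, had a mean of 12.06 in Ex6DEL 0 h replicate 1, and 7.19 to 9.12 in all other arrays. None of those 8 lay under the array median on any array. Oocyte markers, 8 of 8 measured, had a mean of 9.89 in that same array and 7.42 to 9.01 elsewhere. WT 0 h replicate 1 held the lowest value of its group for 33 of the 46 members, with a median deviation of -0.26 from the group mean, and a median of -0.27 over all genes above the median level. The part of these arrays in the differences between groups was not tested, and the values without single arrays are given beside the calls.

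Of the 46 members, 40 lay above the median gene's mean level of 4.74, and 42 had a mean above the highest array median in every group. Chd5, the CHD ATPase known from neurons, lay at or under the array median on all 12 arrays, and Actl6b, the actin-related BAF subunit of neurons, on 11 of 12. Ercc6, the Cockayne syndrome ATPase of transcription-coupled repair, did so on 11 of 12 too. Dpf3 was at or under the array median only at 4 h, there on all 6 arrays. The values of 5 members, Smarcd1, Dpf1, Actl6b, Chd5 and Ino80, lay within 0.1 of their own minimum on at least 6 of 12 arrays, as did 39.7% of all genes.

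**Figure D1:**
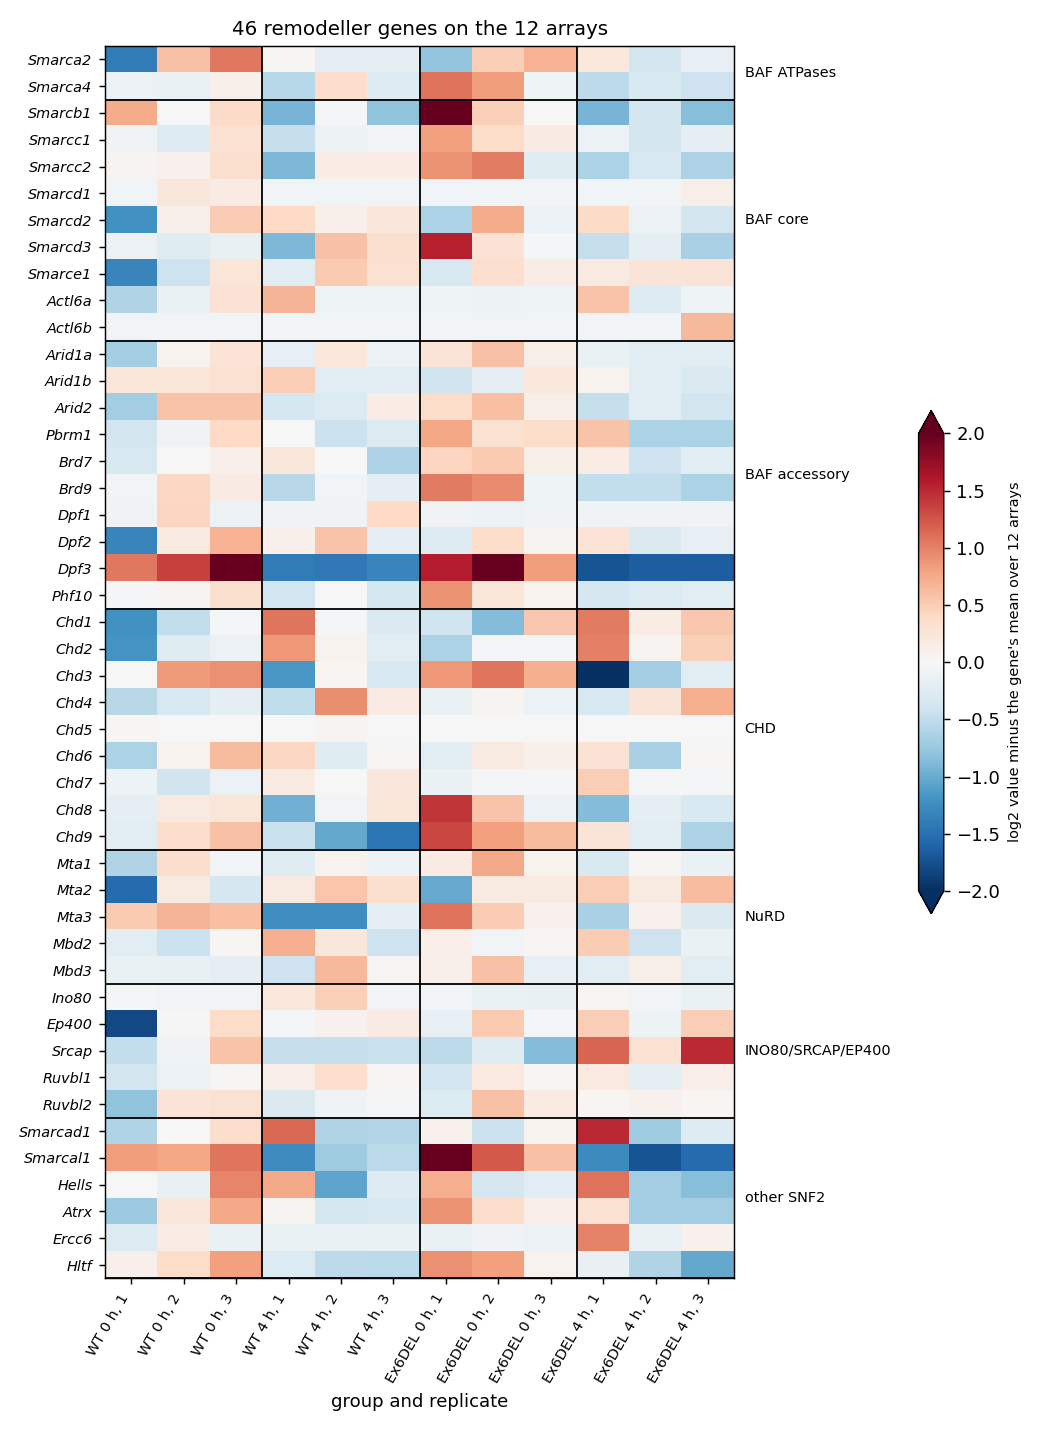
Log2 values of the 46 members (rows, by role) on the 12 arrays (columns, by group and replicate), each minus the gene's mean over the 12 arrays; colour runs from -2 to 2. Dpf3 and Smarcal1 are above their mean in all 6 arrays of 0 h and below it in all 6 of 4 h, while Chd5 hardly varies.

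The response to hCG was asked of each genotype and of the mean of both, which sets 6 arrays of 4 h against 6 of 0 h. Over that mean, 7 of 46 members fell and none rose at an adjusted p under 0.05 (limma, Benjamini-Hochberg over 18194 genes). Of all genes 9.72% were called, 6.62% lower and 3.1% higher. Among the 9097 genes above the median level, 523 were called higher and 1086 lower (17.7%), against 6 of the 40 members there (15%). Counted in either direction, the share of members called was close to that of other genes of their level. All 6 of these members were called lower. At an unadjusted p under 0.05 there were 17 members (37%), against 23.1% of all genes. Above the median level there were 16 of the 40 members (40%), against 40.1% of genes. Members were called higher in 3 alternative fits: Chd2 with arrays shifted to one median, Chd4 with the mean of all probe sets, and Ino80 (0.23, adjusted p = 0.0432) without WT 4 h replicate 3. Over all 6 arrays of each time, 4 members had every 4 h array below every 0 h array, against 5.18% of all genes, and none had them all above, against 2.48%. The members that fell were Dpf3, Smarcal1, Chd3, Chd9, Mta3, Hltf and Brd9. The median log2 difference was -0.11 for the members, -0.21 for the 40 above the median level, and -0.20 for all genes above it. Markers of other states and cells moved as well. Of 10 proliferation markers measured, 9 were lower in the mean response, from -1.69 to -0.28, and Pcna was higher by 0.96. Their mean level was 8.90 to 10.55 on the arrays of 0 h and 8.64 to 9.19 on those of 4 h. All 8 theca and stroma markers were lower in Ex6DEL, by -2.95 to -1.08, and 3 of 8 in WT, where the range was -1.30 to 0.33. The mean level of that list was 7.72 to 12.06 at 0 h and 7.19 to 8.61 at 4 h. Of 7 granulosa markers measured, 5 were lower in the mean response and 1 higher. Fshr, Foxl2, Nr5a1 and Nr5a2 had -3.39, -2.69, -1.29 and -0.18. Inha and Inhba had -0.06 and 0.14, with 0.57 and 0.73 in WT and -0.69 and -0.45 in Ex6DEL. Oocyte markers were higher for 8 of 8 in WT (0.04 to 1.01) and lower for 7 of 8 in Ex6DEL (-1.57 to 0.07). The part of these shifts in the responses of the members was not tested.

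Dpf3 had the largest difference among the members. It encodes a PHD-finger subunit of BAF known from heart and skeletal muscle, where it reads modified histones. At 0 h its log2 values were 4.98, 5.30 and 6.14 in WT and 5.50, 6.07 and 4.77 in Ex6DEL. At 4 h they were 2.53, 2.51 and 2.61 in WT and 2.21, 2.29 and 2.29 in Ex6DEL. All arrays of 0 h were above all arrays of 4 h, and every 4 h value lay below the median of its array, at the level of background. In WT the mean went from 5.47 ± 0.60 to 2.55 ± 0.05 (SD, n = 3 arrays), a log2 difference of -2.93 (SE 0.35, adjusted p = 0.0148). It was the only member called in WT, where 0.929% of all genes were called and 0.319% called lower, 0.61% higher. In Ex6DEL the mean went from 5.45 ± 0.65 to 2.26 ± 0.04, a difference of -3.18 (SE 0.35, adjusted p = 0.0126). The mean response was -3.06 (SE 0.25, adjusted p = 0.00115), an 8.32-fold lower value. With values under the table median of 2.82 raised to it, the mean response was -2.64, since the 4 h level is a bound set by background. The mean response passed the threshold in 12 of 12 fits that each left out 1 array. The single responses passed in 11 of 12: the adjusted p was 0.0524 in WT without WT 4 h replicate 2 and 0.0526 in Ex6DEL without Ex6DEL 4 h replicate 3. A fit of only the groups compared raised it to 0.0846 in WT and 0.119 in Ex6DEL. Its other probe set lay between 2.47 and 2.49 on all arrays, near background.

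Smarcal1, an annealing helicase that rewinds DNA and restarts stalled replication forks, showed the next largest fall. Its values at 0 h were 8.68, 8.62 and 8.91 in WT and 10.36, 9.06 and 8.43 in Ex6DEL. At 4 h they were 6.58, 7.13 and 7.30 in WT and 6.57, 6.11 and 6.31 in Ex6DEL. In both genotypes every 4 h array was lower than every 0 h array, and the highest value belonged to the Ex6DEL array with the raised theca and stroma markers. The difference was -2.95 in Ex6DEL (SE 0.43, adjusted p = 0.0281), where 2.17% of all genes were called, 1.6% lower and 0.566% higher; Dpf3 and Smarcal1 were the 2 members called there. In WT it was -1.73 (SE 0.43, adjusted p = 0.107), and the mean response was -2.34 (SE 0.30, adjusted p = 0.00496). The mean response was called in 12 of 12 fits without 1 array. The Ex6DEL call held in 7 of 12 and was lost without WT 0 h replicate 2, Ex6DEL 0 h replicate 2 or any of the Ex6DEL 4 h replicates, with adjusted p up to 0.0958, and it was 0.185 in a fit of only the groups compared. With the replicate number as a block it was 0.0567, so that Dpf3 alone was called in Ex6DEL. Without Ex6DEL 0 h replicate 1 the Ex6DEL difference was -2.41 (adjusted p = 0.0229). A second probe set gave a mean response of -1.57 (SE 0.34), with -1.90 in WT and -1.23 in Ex6DEL. The larger response was thus in Ex6DEL by one probe set and in WT by the other: the difference between the responses was -1.23 (SE 0.61, adjusted p = 0.871) in the chosen one and 0.67 (SE 0.67) in the other.

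Hltf, a ubiquitin ligase and translocase that reverses stalled forks, fell by less. Its values at 0 h were 6.94, 7.21 and 7.67 in WT and 7.76, 7.66 and 6.91 in Ex6DEL. At 4 h they were 6.58, 6.33 and 6.31 in WT and 6.70, 6.24 and 5.82 in Ex6DEL. All arrays of 4 h were under all of 0 h, by a narrow margin. For Hltf the mean response was -1.03 (SE 0.21, adjusted p = 0.0213), with -0.87 in WT and -1.19 in Ex6DEL, where the adjusted p was 0.0765. The call was kept in 9 of 12 fits without 1 array and lost without WT 0 h, WT 4 h or Ex6DEL 0 h replicate 2, at an adjusted p of up to 0.0543. Its 2 other probe sets lay near background, and with the mean of all 3 the adjusted p was 0.0750. The Ex6DEL response of Hltf passed without Ex6DEL 0 h replicate 3, at -1.46 (adjusted p = 0.0295).

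The remaining SNF2-family ATPases did not pass the test in any comparison. Smarcad1, Hells and Atrx act in resection and silencing, DNA methylation and heterochromatin, and their mean hCG responses were 0.17 (SE 0.46), -0.34 (SE 0.46) and -0.55 (SE 0.29). For Smarcad1 and Hells, replicate 1 of 4 h was the highest array of its group in both genotypes, at 9.63 and 9.98 for Smarcad1 and 7.71 and 8.04 for Hells, with the other 4 h arrays at 7.77 to 8.22 and 5.89 to 6.70. At 0 h Hells had 6.96, 6.81 and 7.93 in WT and 7.68, 6.62 and 6.75 in Ex6DEL.

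**Figure D2:**
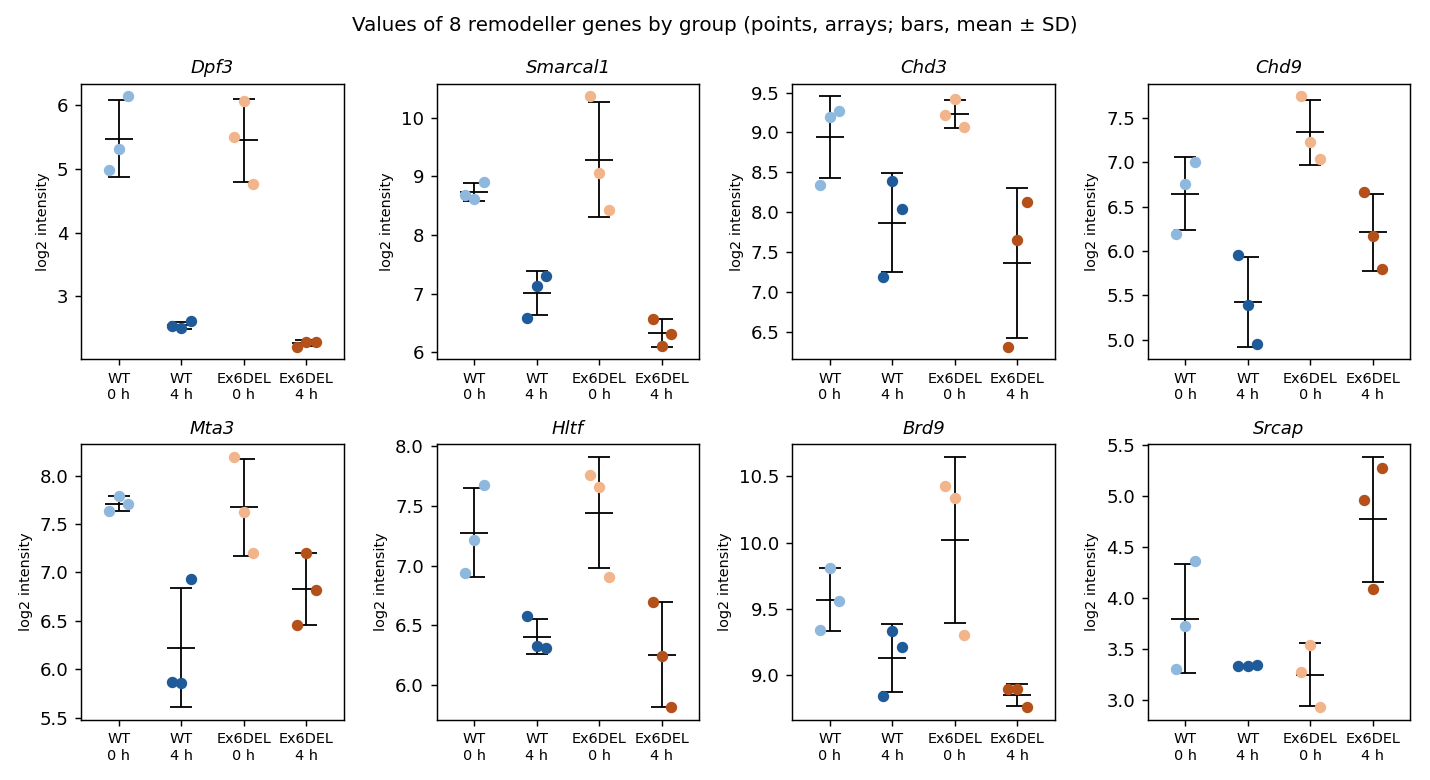
Log2 intensity (vertical axis, scaled to each gene) of 8 members on the 12 arrays; points are arrays, long bars the group mean and short bars 1 SD to each side. The 7 members called lower in the mean hCG response come first, and Srcap, not called, has its 3 Ex6DEL arrays of 4 h above the 3 Ex6DEL arrays of 0 h.

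The promoters of the 3 members that passed the test and whose 4 h arrays all lay below their 0 h arrays over both genotypes are shown, so that the sequence before each start can be read beside the fall. The sequences are from RefSeq on GRCm38.p6, 250 bases before the annotated start, 5′ to 3′ on the strand of the gene. Capitals mark GC boxes, CCAAT boxes, the short CRE motif and the RUNX site, on either strand. Dpf3 lies at chr12:83487737-83487986 on the minus strand, Smarcal1 at chr1:72583001-72583250 on the plus strand and the first of the Hltf windows at chr3:20057561-20057810 on the plus strand.
Dpf3: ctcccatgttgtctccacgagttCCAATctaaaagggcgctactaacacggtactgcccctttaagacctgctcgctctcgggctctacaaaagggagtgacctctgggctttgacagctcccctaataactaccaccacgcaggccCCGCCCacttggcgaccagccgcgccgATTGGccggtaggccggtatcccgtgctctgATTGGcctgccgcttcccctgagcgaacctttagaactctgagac
Smarcal1: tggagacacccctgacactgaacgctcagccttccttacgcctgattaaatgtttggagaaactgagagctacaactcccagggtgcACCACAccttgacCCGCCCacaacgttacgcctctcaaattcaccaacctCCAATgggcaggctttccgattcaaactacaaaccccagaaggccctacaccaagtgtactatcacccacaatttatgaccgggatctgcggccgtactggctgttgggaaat
Hltf: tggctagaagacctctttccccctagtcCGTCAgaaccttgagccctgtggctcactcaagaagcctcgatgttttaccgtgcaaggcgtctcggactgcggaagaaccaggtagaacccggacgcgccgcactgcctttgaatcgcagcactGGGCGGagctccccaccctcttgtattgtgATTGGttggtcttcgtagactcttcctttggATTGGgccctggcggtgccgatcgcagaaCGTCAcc

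The Dpf3 window held 3 CCAAT boxes and 1 GC box, and the Smarcal1 window 1 CCAAT box, 1 GC box and 1 RUNX site. The Hltf window held 2 short CRE motifs, 2 CCAAT boxes and 1 GC box. Windows were found for 38 of the 46 members, 45 in all. Their median GC content was 64.8%, against 52.4% in all 32851 windows. Those windows belong to 27025 genes and were not matched to the members for expression level, here or in the shares that follow. The GC box GGGCGG was in 77.8% of member windows and 32.7% of all, and CCAAT in 33.3% and 33.8%. The short CRE motif TGACG was in 31.1% and 17.8%, and the full site TGACGTCA, which contains it, in 0% and 1.55%. The NR5A site AAGGTCA was in 0% and 4.08%, the AP-1 site TGANTCA in 2.22% and 6.75%, and the RUNX site TGTGGT in 11.1% and 14%. The E-box CACGTG was in 4.44% and 6.02%, and the TATA box TATAAA in 8.89% and 12.4%. All motifs were searched on both strands. These are descriptions of letters in a window and were set against no test. No window was matched for Arid2, Chd1, Chd2, Chd3, Chd7, Mbd2, Mta3 and Smarce1.

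Of the 9 CHD ATPases, 2 fell in the mean hCG response (22.2%). Of all genes 6.62% were called lower, and of those above the median level 17.7% were called in either direction. The roles hold too few genes to be told apart by such counts. Chd3, a motor of NuRD, had values of 8.35, 9.20 and 9.27 in WT and 9.22, 9.42 and 9.07 in Ex6DEL at 0 h. At 4 h they were 7.18, 8.39 and 8.05 in WT and 6.32, 7.66 and 8.12 in Ex6DEL. One WT array of 4 h was above the lowest of 0 h, and the groups of Ex6DEL did not overlap. Averaged over the genotypes, Chd3 differed by -1.47 (SE 0.35, adjusted p = 0.0346), with -1.07 in WT and -1.87 in Ex6DEL. The call held in 4 of 12 fits without 1 array, those without WT 0 h replicate 1, Ex6DEL 0 h replicate 3, Ex6DEL 4 h replicate 1 or Ex6DEL 4 h replicate 3. In the other 8 the adjusted p reached 0.0850.

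Chd9, a CHD ATPase first described as a coactivator of nuclear receptors, had values of 6.19, 6.75 and 7.0 in WT and 7.75, 7.23 and 7.04 in Ex6DEL at 0 h. After hCG they were 5.95, 5.39 and 4.95 in WT and 6.66, 6.17 and 5.80 in Ex6DEL. Within each genotype the 4 h arrays were all lower than those of 0 h. The mean response was -1.17 (SE 0.24, adjusted p = 0.0217), with -1.22 in WT and -1.13 in Ex6DEL. The call was lost without WT 0 h replicate 2, WT 0 h replicate 3, WT 4 h replicate 2 or Ex6DEL 4 h replicate 3, with adjusted p up to 0.0572. Its other probe sets lay near background.

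The other CHD ATPases did not pass, except in single alternative fits. Chd1, which works in transcribed chromatin, and its relative Chd2 had positive differences in both genotypes, at 0.82 and 0.82 for Chd1 and 0.76 and 0.75 for Chd2 in WT and Ex6DEL. Chd1 values were 5.86, 6.57 and 7.02 in WT and 6.66, 6.20 and 7.60 in Ex6DEL at 0 h, and 8.13, 7.02 and 6.77 in WT and 8.10, 7.21 and 7.60 in Ex6DEL at 4 h. The groups overlapped in both genotypes, with replicate 1 the highest of each 4 h group. Chd2 had 6.85, 7.80 and 7.93 in WT and 7.42, 8.0 and 8.0 in Ex6DEL at 0 h, and 8.92, 8.12 and 7.82 in WT and 9.06, 8.10 and 8.51 in Ex6DEL at 4 h. In Ex6DEL the 4 h arrays were all above those of 0 h, and in WT they overlapped. The 3 other probe sets of Chd1 also had positive mean responses, at 0.82, 1.17 and 1.05. For Chd1 the mean response was 0.82 (SE 0.35, adjusted p = 0.205) and for Chd2 0.76 (SE 0.28, adjusted p = 0.14). With arrays shifted to one median Chd2 passed, at 0.83 and an adjusted p of 0.0427. Chd4, the main NuRD motor in many tissues, went from 9.31, 9.54 and 9.68 to 9.35, 10.79 and 10.03 in WT, and from 9.72, 9.91 and 9.74 to 9.53, 10.11 and 10.59 in Ex6DEL, with overlapping arrays in both. Its mean response was 0.42 (SE 0.26), but its other probe sets had 1.09 (SE 0.16) and 0.96 (SE 0.23), and with the mean of all probe sets it was 0.82 and passed at an adjusted p of 0.0105. Chd8, a regulator of Wnt target genes, had a mean response of -0.71 (SE 0.30, adjusted p = 0.199), and another of its probe sets had 0.68 (SE 0.50), in the opposite direction. By the chosen probe set it had 8.98, 9.34 and 9.40 at 0 h and 8.20, 9.11 and 9.39 at 4 h in WT, and 10.59, 9.72 and 9.05 at 0 h and 8.29, 8.97 and 8.85 at 4 h in Ex6DEL. The highest of these was again the Ex6DEL array with the raised theca and stroma markers.

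Among the 5 NuRD subunits 1 fell (20%). Of the 9097 genes above the median level, 1086 were called lower and 523 higher (17.7%). Mta3, a subunit whose level is known to follow oestrogen in mammary epithelium, had values of 7.64, 7.79 and 7.70 in WT and 8.19, 7.62 and 7.20 in Ex6DEL at 0 h. After hCG the values were 5.87, 5.86 and 6.93 in WT and 6.46, 7.20 and 6.82 in Ex6DEL. In WT all 4 h arrays were below those of 0 h, and in Ex6DEL replicate 2 of 4 h reached the lowest array of 0 h. The mean response was -1.17 (SE 0.24, adjusted p = 0.0224), with -1.49 in WT (adjusted p = 0.0884) and -0.84 in Ex6DEL. A second probe set gave -1.57 (SE 0.27), with -1.72 in WT and -1.43 in Ex6DEL. The call held in 5 of 12 fits without 1 array, those without WT 0 h replicate 1, WT 4 h replicate 3, Ex6DEL 0 h replicate 1, Ex6DEL 0 h replicate 3 or Ex6DEL 4 h replicate 2, and in the other 7 the adjusted p reached 0.0595.

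Neither paralogue of Mta3 passed. Mta1 had a mean response of -0.23 (SE 0.18), and Mta2, the most common family member in NuRD of many cells, had 0.78 (SE 0.32, adjusted p = 0.186). Mta2 values were 4.10, 5.81 and 5.30 in WT and 4.63, 5.81 and 5.81 in Ex6DEL at 0 h, and 5.81, 6.18 and 5.96 in WT and 6.13, 5.81 and 6.25 in Ex6DEL at 4 h. The lowest arrays were replicate 1 of both 0 h groups, and the other arrays of 0 h came close to or touched those of 4 h. The methyl-CpG binding subunits Mbd2 and Mbd3 had mean responses of 0.17 (SE 0.22) and -0.01 (SE 0.19) and did not pass.

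In BAF, 2 of the 10 accessory subunits fell (20%), Dpf3 and Brd9. In the main fit 0 of the 9 core subunits and of the 2 ATPases passed. Of the 9097 genes above the median level, 1086 were called lower and 523 higher (17.7%). Brd9, the bromodomain subunit that defines the non-canonical BAF complex, had values of 9.34, 9.81 and 9.56 in WT and 10.43, 10.34 and 9.30 in Ex6DEL at 0 h. After hCG the values were 8.84, 9.33 and 9.21 in WT and 8.90, 8.90 and 8.76 in Ex6DEL. The arrays did not overlap within a genotype, although the gap in WT was narrow. Over both genotypes the difference was -0.81 (SE 0.20, adjusted p = 0.0404), with -0.44 in WT and -1.17 in Ex6DEL (adjusted p = 0.0707). The call of the mean response held only without WT 0 h replicate 1 or Ex6DEL 0 h replicate 3. Without any of the other 10 arrays its adjusted p was above 0.05 and reached 0.0978. The Ex6DEL response of Brd9 passed without Ex6DEL 0 h replicate 3, at -1.53 (adjusted p = 0.0066).

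The ATPases Smarca4 and Smarca2, the alternative motors of every BAF complex, had mean responses of -0.57 (SE 0.22, adjusted p = 0.165) and -0.22 (SE 0.44). Smarca4 had 9.87, 9.86 and 10.09 at 0 h and 9.41, 10.34 and 9.73 at 4 h in WT. In Ex6DEL it had 11.08, 10.82 and 9.89 at 0 h and 9.46, 9.69 and 9.57 at 4 h. The Ex6DEL arrays did not overlap and those of WT did, and the difference in Ex6DEL was -1.02 (SE 0.31, adjusted p = 0.126). Without Ex6DEL 0 h replicate 3, the array with the raised ovulatory genes, that difference was -1.37 and passed (adjusted p = 0.0231). The mean response of Smarca4 in that fit was -0.74 and passed too (adjusted p = 0.0263). A second Smarca4 probe set gave -0.41 in Ex6DEL and 0.33 in WT.

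Smarcb1, the core subunit that anchors BAF on the nucleosome, had the largest difference of the core that did not pass. Its values were 9.38, 8.61 and 9.01 at 0 h and 7.70, 8.58 and 7.82 at 4 h in WT. In Ex6DEL they were 10.98, 9.10 and 8.62 at 0 h and 7.69, 8.26 and 7.77 at 4 h. All arrays of 4 h were below all of 0 h, in WT replicate 2 by a small margin. Over both genotypes Smarcb1 differed by -1.31 (SE 0.40, adjusted p = 0.0747). Without Ex6DEL 0 h replicate 1, the array with the raised theca and stroma markers, it was -0.96 and passed at an adjusted p of 0.0467, and without Ex6DEL 0 h replicate 3 the adjusted p was 0.0334. A second probe set gave -0.48 (SE 0.15).

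The scaffold subunits Smarcc1 and Smarcc2 had mean responses of -0.44 (SE 0.14, adjusted p = 0.096) and -0.72 (SE 0.26, adjusted p = 0.136). In Ex6DEL their 4 h arrays were all lower than those of 0 h. Smarcc2 had 8.98, 9.10 and 7.85 at 0 h and 7.45, 7.77 and 7.47 at 4 h there, and 8.13, 8.17 and 8.41 at 0 h and 7.19, 8.24 and 8.24 at 4 h in WT. Without Ex6DEL 0 h replicate 3 Smarcc2 passed. It had -1.48 in Ex6DEL (adjusted p = 0.0338) and -0.91 in the mean response (adjusted p = 0.0277). Smarce1, which binds DNA through an HMG domain, had 7.53, 8.43 and 9.09 at 0 h and 8.63, 9.37 and 9.15 at 4 h in WT, where replicate 1 of 0 h was low. In Ex6DEL it had 8.52, 9.18 and 8.99 at 0 h and 9.01, 9.09 and 9.09 at 4 h, with overlap. Smarcd3, a BAF subunit known from heart and muscle, had 7.75, 7.63 and 7.72 at 0 h and 6.97, 8.45 and 8.19 at 4 h in WT. In Ex6DEL it had 9.43, 8.17 and 7.84 at 0 h and 7.39, 7.70 and 7.22 at 4 h, with no overlap. Smarcd1, a core subunit that links BAF to transcription factors, was flat, at 5.44, 5.72 and 5.66 in WT at 0 h, 5.44 on each WT array of 4 h and each Ex6DEL array of 0 h, and 5.44, 5.45 and 5.61 in Ex6DEL at 4 h. The accessory subunits Arid1a, Arid1b, Arid2, Pbrm1, Brd7, Dpf1, Dpf2 and Phf10 sort BAF into its canonical and PBAF forms. Their mean responses lay between -0.52 (Phf10) and 0.10 (Dpf2), and 0 of these 8 passed in the main fit. Phf10, Arid2 and Arid1a were called lower in some alternative fits. Dpf1, the neuronal relative of Dpf3, had 3.35, 3.86 and 3.30 at 0 h and 3.35, 3.35 and 3.82 at 4 h in WT, and 3.30 to 3.35 on all 6 arrays of Ex6DEL.

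None of the 5 genes of the INO80, SRCAP and EP400 group passed for hCG. They are too few to set against the 17.7% called among genes above the median level in the mean response. Srcap, the motor that deposits variant histones, had 3.30, 3.72 and 4.36 at 0 h and 3.33, 3.33 and 3.34 at 4 h in WT. In Ex6DEL it had 3.27, 3.54 and 2.92 at 0 h and 4.96, 4.09 and 5.27 at 4 h. The Ex6DEL arrays of 4 h stood above those of every other group except for the highest WT array of 0 h, which exceeded 1 of them. The difference was 1.53 in Ex6DEL (SE 0.34, adjusted p = 0.0588) and -0.46 in WT. With arrays shifted to one median it passed at 1.63 (adjusted p = 0.0209), and without Ex6DEL 4 h replicate 2 at 1.87 (adjusted p = 0.0462). The values were low but above the array median on all 12 arrays. Its 3 other probe sets, with mean levels of 3.18, 2.34 and 2.50, had 0.02, -0.16 and 0.03 in Ex6DEL. Ep400, the motor of the TIP60 complex, went from 9.50, 11.34 and 11.68 to 11.28, 11.40 and 11.48 in WT, with the lowest value in replicate 1 of 0 h, the array that was lowest for most members. In Ex6DEL it had 11.16, 11.83 and 11.27 at 0 h and 11.81, 11.22 and 11.80 at 4 h, with overlap. Ruvbl1 and Ruvbl2, the hexameric helicases shared by these complexes, had mean responses of 0.21 (SE 0.12) and -0.09 (SE 0.21). Ino80, the motor of the complex of that name, had 5.85, 5.84 and 5.84 at 0 h and 6.09, 6.36 and 5.84 at 4 h in WT, and 5.84, 5.77 and 5.74 at 0 h and 5.93, 5.84 and 5.77 at 4 h in Ex6DEL.

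In WT, 9 members had all 4 h arrays on one side of all 0 h arrays, 2 of them higher and 7 lower, against 18.9% of all genes, 7.52% higher and 11.4% lower. In Ex6DEL there were 18 such members, 2 higher and 16 lower, against 19.7% of all genes, 5.13% higher and 14.5% lower. Among genes above the median level the shares in Ex6DEL were 8.16% higher and 26.1% lower. Of all members they were 4.35% and 34.8%, and of the 40 members above that level 2.5% and 37.5%. In WT the shares were 13.5% and 18.1%, against 4.35% and 15.2% of all members and 5% and 15% of those 40. The median difference of the members was -0.05 in WT and -0.17 in Ex6DEL. It was -0.06 and -0.26 for the 40 above the median level, and -0.07 and -0.34 for all genes above it. Leaving out 1 array moved both medians of the 46 members. In WT it was -0.23 without WT 0 h replicate 1, 0.03 without WT 0 h replicate 2, 0.02 without WT 0 h replicate 3, -0.0013 without WT 4 h replicate 1 and -0.08 without WT 4 h replicate 2. In Ex6DEL it was -0.32 without 0 h replicate 1, -0.07 without 0 h replicate 2, -0.11 without 0 h replicate 3, -0.36 without 4 h replicate 1 and -0.06 without 4 h replicate 2. Quantile normalization gave -0.13 in WT and -0.05 in Ex6DEL, the opposite order. Across the 46 members, which are not independent replicates and share the arrays, the responses of WT and Ex6DEL correlated at a Pearson r of 0.806, and at 0.805 across all genes. The sign was the same for 33 of 46 members (71.7%), against 57.2% of all genes. Above the median level it was the same for 31 of 40 members (77.5%), against 74.8% of genes. In the plot of both responses, Srcap, Smarcal1 and Smarcd3 lie farthest from the line of equal response.

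**Figure D3:**
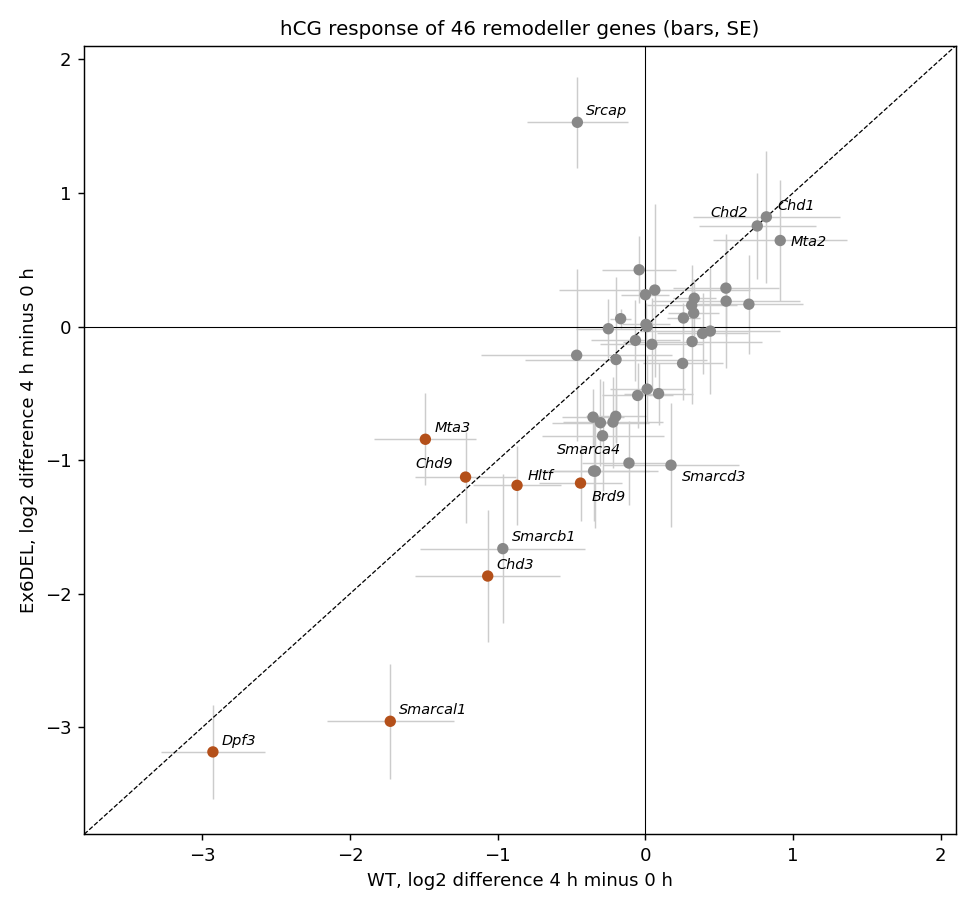
Log2 difference of 4 h minus 0 h in WT (horizontal) and Ex6DEL (vertical) for the 46 members, with SE as bars and the line of equal response dashed; the 7 members called in the mean response are in orange. Dpf3 and Smarcal1 lie farthest down, and Srcap lies above the others in Ex6DEL at 1.53.

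The effect of the Snf2l deletion was asked at each time. At 0 h, 0 of 46 members passed, with 0.033% of all genes called, and the unadjusted p was under 0.05 for 1 member (2.17%), Smarcd1 with -0.17, against 5.36% of all genes. The members leaned upward, with a median difference of 0.26, 33 positive and 12 negative. So did the 40 members above the median level, with a median of 0.29, and all genes above it, with 0.21. Without WT 0 h replicate 1 the median of the members was -0.0011, with 22 positive and 24 negative, and with quantile normalization it was 0.03. It was 0.44 without WT 0 h replicate 3 and 0.15 without Ex6DEL 0 h replicate 2. Arrays did not overlap for 5 members at 0 h, 4 higher in Ex6DEL and 1 lower, against 6.41% of all genes, 3.96% higher and 2.45% lower. Of these, Chd9 differed by 0.69 (95% interval -0.08 to 1.47), Smarcd3 by 0.78 (interval -0.28 to 1.83), Brd7 by 0.42 (interval -0.12 to 0.97), Chd4 by 0.28 and Arid1b by -0.39. For Arid1b, a DNA-binding subunit of canonical BAF, the arrays of 0 h were 6.85, 6.86 and 6.91 in WT and 6.20, 6.41 and 6.82 in Ex6DEL. At 4 h they were 7.10, 6.38 and 6.38 in WT and 6.68, 6.38 and 6.32 in Ex6DEL, and overlapped.

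At 4 h, 0 of 46 members passed and 0% of all genes were called. The unadjusted p was under 0.05 for 2 members (4.35%), against 1.62% of all genes: Srcap with 1.44 (SE 0.34, 95% interval 0.66 to 2.22, adjusted p = 1) and Chd9 with 0.78 (interval 0.01 to 1.56). Arrays did not overlap for 4 members, against 2.98% of all genes, 0.962% higher and 2.02% lower. These were Srcap and Ruvbl2, higher in Ex6DEL, and Smarcal1 and Dpf3, lower, and both Dpf3 groups lay at background. Smarcal1 had -0.68 (interval -1.65 to 0.30). The plot of the genotype differences shows how wide the intervals are. That of Smarca2, with a fitted difference near 0, ran from -1.40 to 1.40, so the p-values do not show that the genotypes are alike.

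**Figure D4:**
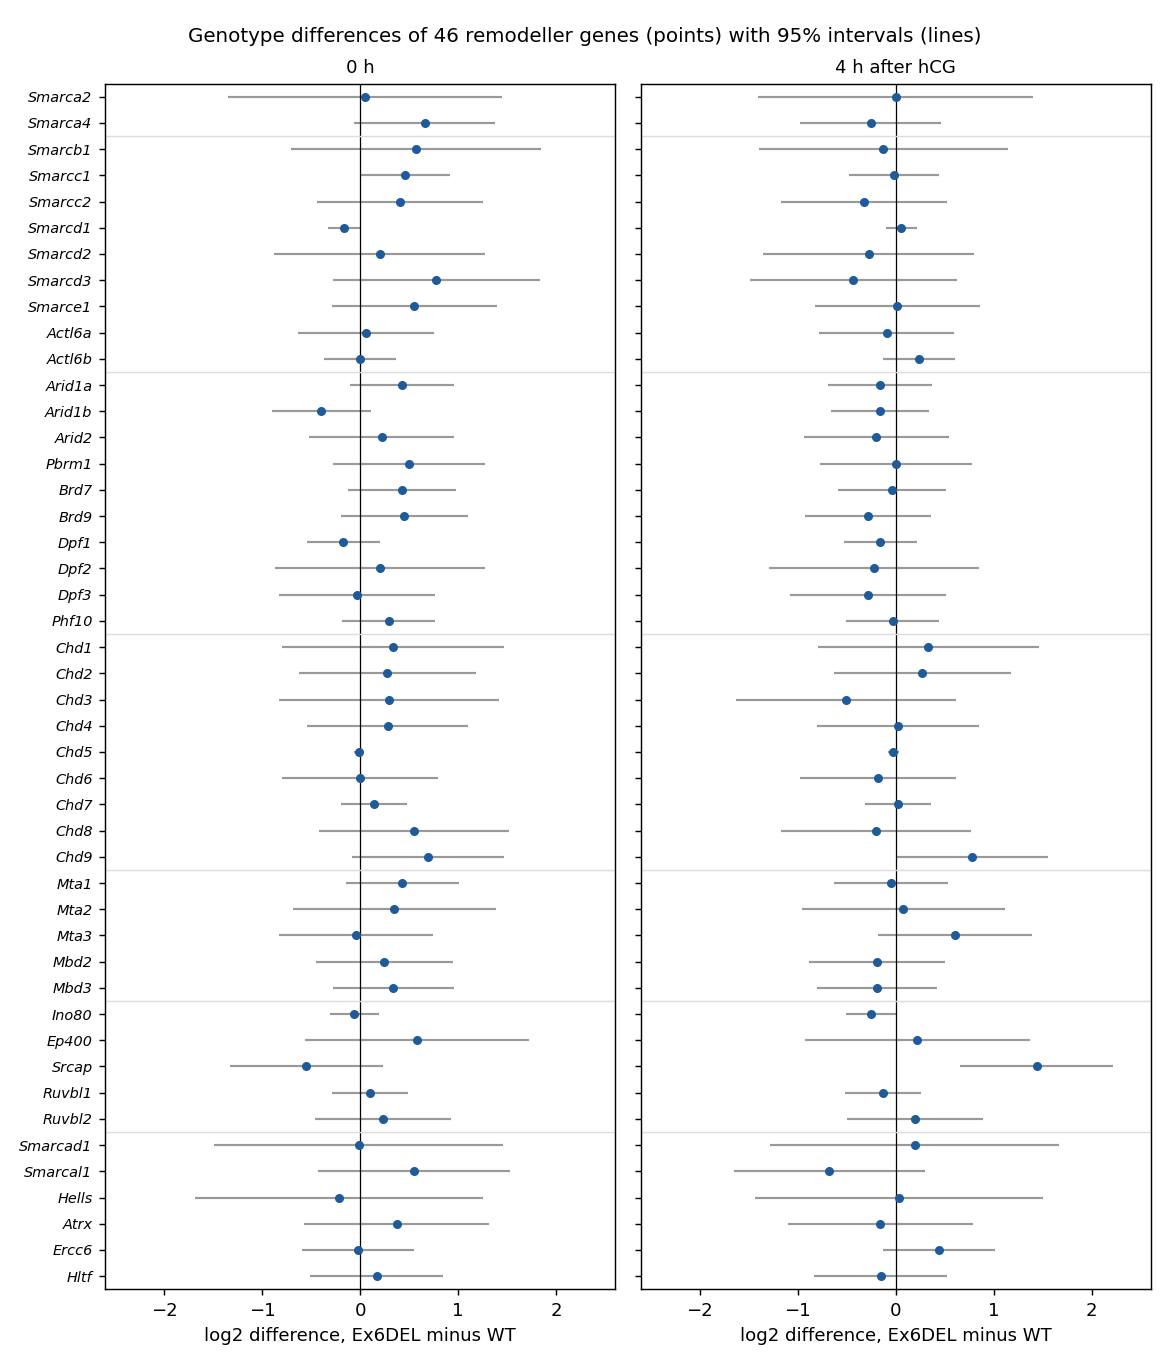
Log2 difference of Ex6DEL minus WT at 0 h (left) and 4 h (right) for each of the 46 members, by role; points are the fitted differences and lines their 95% intervals. At 0 h 33 points lie above 0 and 1 interval leaves out 0, that of Smarcd1; at 4 h those of Srcap and Chd9 do.

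Whether hCG acted differently in the genotypes was tested as an interaction, Ex6DEL minus WT response. It passed for 0 of 46 members, with 0.011% of all genes called, and 1 member (2.17%) had an unadjusted p under 0.05, against 3.2% of all genes. That was Srcap, at 1.99 (SE 0.48, unadjusted p = 0.00291, adjusted p = 0.871). Smarcal1 followed with -1.23 (interval -2.61 to 0.16) and Smarcd3 with -1.21 (interval -2.70 to 0.28). The median over the members was -0.29. Over the 40 members above the median level it was -0.39, and over all genes above it -0.32. Quantile normalization brought the median of all 46 members to -0.04. It was -0.07 without WT 0 h replicate 1 and -0.51 without WT 0 h replicate 3. The mean genotype difference over both times passed for 0 of 46 members, with 0.0165% of all genes called, and for no member were all 6 Ex6DEL arrays on one side of the 6 WT arrays, against 0.022% of all genes.

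The other genes of these complexes, a list of 59 subunits and SNF2 relatives of which 58 were measured, are given for comparison. In the mean hCG response 1 rose and 9 fell (17.2%), against 9.72% of all genes and 17.7% of those above the median level. In Ex6DEL 4 fell (6.9%), against 2.17% of all genes called, 1.6% lower, and 4.13% of those above the median level. In WT 0 passed, against 0.929% of all genes. At an unadjusted p under 0.05 in WT there were 17.2%, against 14.4% of all genes and 23.5% of those above the median level. The smallest p in WT were those of Bcl11a, at -1.89 (SE 0.40, adjusted p = 0.0687), and Mcrs1, at -1.32 (SE 0.31, adjusted p = 0.0936). Zranb3, which like Smarcal1 and Hltf remodels stalled forks, had the largest fall. It had 6.49, 6.99 and 7.52 at 0 h and 4.46, 3.64 and 6.08 at 4 h in WT, and 7.47, 7.19 and 6.75 at 0 h and 3.77, 4.53 and 3.91 at 4 h in Ex6DEL. No array of 4 h reached one of 0 h. Its mean response was -2.67 (SE 0.40, adjusted p = 0.00774). These 3 genes were set side by side after their values were seen.

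Bcl11a, a zinc-finger protein found in BAF, fell by 2.06 on the log2 scale (SE 0.28, adjusted p = 0.00584), and Mcrs1 of INO80 fell by 1.76 (SE 0.22, adjusted p = 0.00465). Chd1l, a PARP-activated relative of the CHD ATPases, fell by 1.22, Ttf2 by 1.25, Ercc6l2 by 1.10, Bcl7a by 0.81, Cdca7l by 0.81 and Znhit1 of SRCAP by 0.41. Rad54l2, an ATPase that binds steroid receptors, was the only one that rose. It had 5.09, 6.84 and 6.77 at 0 h and 8.64, 8.13 and 7.59 at 4 h in WT, and 3.65, 5.64 and 6.68 at 0 h and 8.41, 7.28 and 8.18 at 4 h in Ex6DEL. All its 4 h arrays were above all of 0 h, at a mean response of 2.26 (SE 0.56, adjusted p = 0.0388).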

How the data were processed

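The authors deposited 1 table of log2 intensities for 45101 probe sets on the 12 arrays. Per the submitters' processing notes the values come from GCRMA, version not given, a method of background correction, quantile normalization and probe summary. All values lay between 2.21 and 18.18. The platform annotation gave 34958 probe sets exactly 1 gene symbol; the others, 932 with several symbols and 9211 without an entry, were not tested. The probe set with the highest mean stood for each of 18194 genes.

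A linear model was fitted to all 12 arrays with limma 3.58.1 in R 4.3.3 (lmFit, eBayes, 8 residual degrees of freedom, prior 0.626) and tested in 7 contrasts, two-sided. P-values were adjusted by Benjamini-Hochberg over all genes, and an adjusted p under 0.05 was called. The fit was tested on simulated data with 50 genes above the median level changed at each size. The other 17994 of the 18194 genes had no change there, while 9.72% of genes were called in the real mean response. In the WT response 5 of 50 changes of log2 1 and 25 of 50 of log2 2 were called. In the mean response 12 and 37 of 50 were called. Changes of these sizes can thus go uncalled in such data. The adjustment depends on how many genes change, so these shares do not carry over to the real arrays. The number of arrays limits the precision.

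The members, the list of other genes and the tests were chosen with earlier results of these data known. Values per array are given for each member called in any contrast and for the 5 largest differences in each direction of a contrast, whose level was above background. Other probe sets are given for these members where they measure the gene or differ in sign. Genes of the other list are named where called.

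Replicate numbers were checked for pairing by correlating the arrays' deviations from their group means. For same-numbered arrays the correlation ran from -0.04 to 0.73. It was above 0.1 for all 3 pairs only between Ex6DEL at 0 h and 4 h (0.14, 0.40 and 0.24). Between the genotypes it was 0.73, 0.37 and -0.02 at 4 h and 0.18, 0.55 and -0.04 at 0 h. Arrays of different number in the 4 h groups had -0.63 to 0.45. These values do not settle whether the numbers pair the arrays. The labels state no pairing, so the block was an alternative and is given beside the call it changes. Alternatives were other normalizations, filters, variance settings, array weights, a replicate block, a stricter threshold and each array left out. A joint omission of 2 of the arrays that stood apart, replicate 1 of WT at 0 h and replicate 3 of Ex6DEL at 0 h, was chosen after seeing the data. Replicate 1 of Ex6DEL at 0 h, which stood apart too, was left out only on its own.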

Additional observations from a re-analysis of the deposited data

How the results depend on the processing

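The count of members called for the WT hCG response was 1. It was 2 with genes above the median level only, Smarcal1 and Mta3, since Dpf3 lies under that level and was not tested there. It was 2 with the mean of all probe sets, Smarcal1 and Dpf3, and 7 (1 higher, 6 lower) with array weights. It was 0 with only the groups compared or an adjusted p under 0.01. Leaving out 1 array gave 0 to 2. For the Ex6DEL response the count was 2. It was 4 (1 higher, 3 lower) with arrays shifted to one median, 1 with the replicate block, and 0 with only the groups compared or an adjusted p under 0.01. It was 4 with genes above the median level only, Smarcal1, Brd9, Chd3 and Hltf, again without a test of Dpf3. Quantile normalization called Hltf besides Dpf3 and Smarcal1. Leaving out 1 array gave 0 to 6, with 6 without Ex6DEL 0 h replicate 3. Without that array and WT 0 h replicate 1 together it was 7. For the mean response the count was 7, all lower, and 7 with the replicate block. It was 8 with arrays shifted to one median and with the mean of all probe sets, in each 1 higher. Quantile normalization added Phf10 to the 7, and array weights added Phf10 and Arid2, all lower. With genes above the median level only, Smarcb1 was called and Dpf3 was not tested. The count was 2 at an adjusted p under 0.01 (Dpf3 and Smarcal1). It was 2 to 11 with 1 array left out, with 11 without Ex6DEL 0 h replicate 3 and 2 without WT 0 h or WT 4 h replicate 2. Without both doubted arrays it was 12. The replicate block changed no other count. The counts for genotype and interaction were 0 in every fit that was run, and no called value changed sign. A fit of only the groups compared cannot be made for the 3 contrasts that use all groups. The causes of these changes were not tested, and some of the fits use fewer arrays or genes. Quantile normalization moved the median of genes above the median level by 0.19 in the Ex6DEL response, -0.23 for genotype at 0 h and 0.31 for the interaction. Signals near background, as for Dpf3 at 4 h, give bounds rather than levels.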
